A study of Homo sapiens with 4 samples.

Results

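Shared MTF-1 sites that shrink in cadmium are places where the protein was called over a wide stretch of DNA in control cells and over a short piece of the same stretch in cadmium-exposed cells. They were chosen by the covered lengths in 2 peak lists. Control and cadmium peaks that overlapped by at least 1 base were merged into a site, and a site was kept if it was under 8000 bp wide and its cadmium-covered length was 0.25 or less of its control-covered length. The rule gave 2425 shrinking sites on chromosomes 1 to 22 and X. They are 5.12% of the 47367 shared sites under 8000 bp, and the lists together made 77054 merged sites. The lengths of the members are therefore a description and carry no test.

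The data are CUT&RUN peaks for MTF-1 in MDA-MB-231, an established human breast cancer cell line of mesenchymal character that lacks the hormone receptors. In CUT&RUN, an antibody brings a nuclease to a DNA-binding protein, and the DNA cut free around it is sequenced. There were 2 control libraries, whose treatment label is none, and 2 libraries from cells selected by serial passaging in cadmium sulfate and kept at 10 µM. The cadmium cells are thus a passaged population and not an acute exposure, and passage history cannot be told apart from cadmium here. The authors merged the replicates before calling peaks, so each condition is 1 list, no spread between replicates could be measured, and each test compares sites of the 2 lists and not replicates. The lists hold positions without height or counts, so the depth is unknown, and a loss of signal below the caller's threshold cannot be told apart from a loss of binding. All 6 mesenchymal markers had cover within 1 kb of a start in both lists, with 8599 bp in control and 8398 bp in cadmium near VIM, 13398 and 12399 bp near AXL, 8599 and 5797 bp near CAV1 and 11998 and 3398 bp near EGFR. Luminal genes had cover too, with 9798 and 2999 bp near ERBB3, 3396 and 399 bp near CDH1 and 2599 and 2799 bp near FOXA1. ESR1 had 2597 bp in control and 0 in cadmium, GATA3 had 0 and 399 bp, and PGR had 0 in both. A peak near a start is not expression, and these peaks do not separate the mesenchymal from the luminal markers.

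MTF-1 acts on transcription and responds directly to zinc. The paper describes the effect of cadmium as indirect: cadmium takes the place of zinc on metallothionein proteins, and the freed zinc raises MTF-1 activity. MTF-1 is known for turning on metallothionein genes through metal response elements (MREs), short sequences with the core TGCACNC or TGCGCNC. AP-1, a dimer of FOS and JUN proteins, binds TGACTCA at enhancers and responds to stress. Forkhead (FOX) factors bind a different, AT-rich sequence. TEAD and RUNX factors often occupy enhancers of adherent cells together with AP-1.

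The pieces of DNA that the cadmium list kept are shown first for the sites with the lowest ratios, since cadmium kept the smallest share of the control cover there. All positions are hg38, the strand is plus, and capitals mark AP-1 matches in either orientation. Next to coding transcript starts, the lowest ratios were at SMARCD3, a subunit of SWI/SNF chromatin remodelers, at PDIA4, a protein disulfide isomerase of the endoplasmic reticulum, and at PI16, a secreted peptidase inhibitor.

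SMARCD3, chr7:151244401-151244599: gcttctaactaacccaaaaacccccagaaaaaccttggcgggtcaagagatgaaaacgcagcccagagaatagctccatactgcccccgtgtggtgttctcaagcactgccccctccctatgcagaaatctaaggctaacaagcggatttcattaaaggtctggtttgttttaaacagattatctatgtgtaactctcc
PDIA4, chr7:149007601-149007799: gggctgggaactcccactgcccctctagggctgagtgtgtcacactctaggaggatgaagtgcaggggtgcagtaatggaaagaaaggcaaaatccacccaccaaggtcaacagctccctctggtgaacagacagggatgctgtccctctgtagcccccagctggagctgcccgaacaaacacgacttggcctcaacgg
PI16, chr6:36956201-36956399: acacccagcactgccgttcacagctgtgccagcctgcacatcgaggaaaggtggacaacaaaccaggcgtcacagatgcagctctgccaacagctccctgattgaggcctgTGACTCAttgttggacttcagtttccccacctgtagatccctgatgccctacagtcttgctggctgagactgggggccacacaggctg

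The lowest ratios more than 10 kb from every transcript start were in an intron of SHROOM3, a regulator of apical cell shape, and in intergenic DNA whose closest starts belong to RIOK1, a kinase of ribosome maturation, and TRA2B, a splicing factor.

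SHROOM3, chr4:76624401-76624599: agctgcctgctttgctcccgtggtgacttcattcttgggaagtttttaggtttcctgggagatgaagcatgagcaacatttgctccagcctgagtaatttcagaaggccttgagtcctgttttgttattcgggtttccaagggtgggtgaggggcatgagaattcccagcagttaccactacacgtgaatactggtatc
RIOK1, chr6:7425001-7425199: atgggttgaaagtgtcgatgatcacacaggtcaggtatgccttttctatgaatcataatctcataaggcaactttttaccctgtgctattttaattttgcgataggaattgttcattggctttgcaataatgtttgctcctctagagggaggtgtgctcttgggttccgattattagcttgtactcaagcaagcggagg
TRA2B, chr3:185879001-185879199: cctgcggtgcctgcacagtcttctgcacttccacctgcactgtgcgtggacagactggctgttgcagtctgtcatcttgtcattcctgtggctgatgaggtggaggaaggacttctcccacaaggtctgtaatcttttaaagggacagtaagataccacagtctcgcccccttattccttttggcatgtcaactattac

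None of these 6 pieces overlaps an annotated exon, and each is 199 bp long. Only the PI16 piece has an AP-1 match. To show what an AP-1 match looks like in a kept piece, 2 sites of low ratio with a kept piece of 300 bp or less and a match in it were added after their values were seen. They lie near the pseudogene NAP1L1P1 and in an intron of STARD13, near its antisense gene STARD13-AS. The AP-1 match starts at base 108 and 41 of the piece, counted from 1.

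NAP1L1P1, chr11:126080401-126080599: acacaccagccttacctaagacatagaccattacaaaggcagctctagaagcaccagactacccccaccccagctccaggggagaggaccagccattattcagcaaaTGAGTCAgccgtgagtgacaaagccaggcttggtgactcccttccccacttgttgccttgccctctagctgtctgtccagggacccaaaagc
STARD13-AS, chr13:33262201-33262399: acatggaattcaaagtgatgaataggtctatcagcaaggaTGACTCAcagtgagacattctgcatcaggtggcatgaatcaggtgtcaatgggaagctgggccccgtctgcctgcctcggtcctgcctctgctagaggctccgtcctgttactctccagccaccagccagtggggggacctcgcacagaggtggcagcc

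The shrinking sites were wide in control cells and reduced to 1 short piece in cadmium. Their control-covered length had a median of 2399 bp, with quartiles of 1799 and 3399 bp. Their cadmium-covered length had a median of 399 bp, with quartiles of 399 and 599 bp. The ratio ranged from 0.0321 to 0.25 with a median of 0.20. The other 44942 shared sites had medians of 1399 bp in control and 1199 bp in cadmium and a median ratio of 0.875. Since the caller works in bins of 200 bp, most cadmium pieces had 1 of a few lengths: 423 sites (17.4%) kept 199 bp, 1139 (47.0%) kept 399 bp and 488 (20.1%) kept 599 bp. In 2377 of the 2425 sites, 1 control peak met 1 cadmium peak. The remaining sites held 1 control peak and several cadmium pieces, with 2 pieces in 47 and 3 pieces in 1. In sum, cadmium covered 17.8% of the control-covered bases of the shrinking sites and 71.5% of those of the other shared sites. The opposite change, a widening of at least 4-fold, was found at 348 shared sites.

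**Figure D1:**
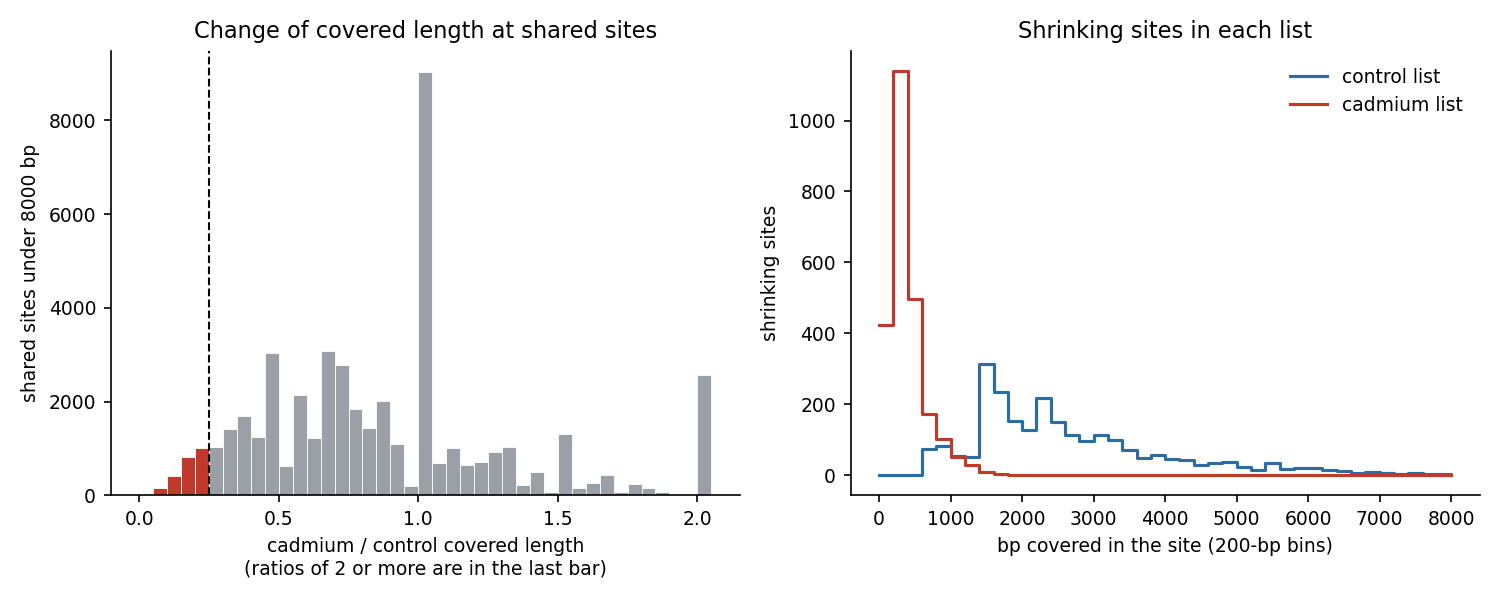
The left panel counts shared sites under 8000 bp (y axis) by cadmium over control covered length (x axis, bars of 0.05), with the 2425 shrinking sites in red left of the dashed line at 0.25. The right panel counts shrinking sites by covered bp in the control list (blue) and the cadmium list (red), with medians of 2399 bp and 399 bp.

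The cut at 0.25 falls within a continuous range of ratios. Just inside it were a site in an intron of TRERF1 (chr6:42275001-42282199, 7199 bp in control and 1799 bp in cadmium), an intergenic site whose closest start belongs to PTGIS (6399 and 1599 bp) and one closest to CRCT1 (5599 and 1399 bp). Just outside it were a site in MIR100HG on chromosome 11 (7799 and 1998 bp, ratio 0.256), one closest to FBRSL1 (6999 and 1798 bp) and one in DST (6999 and 1798 bp). The members just inside and the sites just outside thus differ little.

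The centres of the kept pieces were spread about evenly along the site. A piece has a length of its own, so its centre cannot lie at the very edge. Placement was not compared with random positions, so a preferred place was not tested. With the control-covered stretch divided into 5 equal parts, the centre of the piece was in the first to the last part in 481, 482, 469, 502 and 491 sites. The kept sequence lay inside the control stretch in 1799 sites and touched one edge of it in 626 (25.8%). The centre of the control stretch was still covered in 351 sites (14.5%). Bases outside the control cover were added in 47 sites.

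Shrinking sites were mostly away from transcript starts. Of the 2425, 356 (14.7%, 95% Wilson interval 13.3 to 16.1) had their centre within 1 kb of a transcription start site (TSS), 1228 (50.6%) were in introns, 742 (30.6%) were intergenic, 26 (1.07%) were in coding exons and 73 (3.01%) in other exons. The centre was over 10 kb from every TSS in 1015 (41.9%). The median distance to the closest TSS was 7327 bp, between the 4213 bp of the other shared sites and the 9870 bp of lost peaks, which are control peaks with no cadmium peak. Wide sites are more often at starts, so shares were compared within classes of 200 bp of control-covered length. With the other shared sites weighted to the members' lengths, 45.4% were within 1 kb of a TSS, against 14.7% of the shrinking sites, and the Mantel-Haenszel odds ratio was 0.201 (95% interval 0.179 to 0.226, Cochran-Mantel-Haenszel p = 2.82e-193, n = 2425 shrinking sites). Against lost peaks of the same length, of which 15% were at a TSS after weighting, the odds ratio was 0.951 (0.832 to 1.09, p = 0.486, n = 2422 shrinking sites). A difference from lost peaks was not detectable, and the interval leaves room for a ratio between 0.832 and 1.09. Sites next to each other are not independent, and the intervals hold counting error alone.

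Where a shrinking site did cover a coding start, it was seldom the gene's own outermost start. A protein-coding TSS lay inside the control cover of 314 shrinking sites. In 99 of them (31.5%, 26.6 to 36.9) such a TSS was the outermost start of its gene, counted here as any start within 1 kb of it. The share was 74.2% in the 12909 other shared sites with a coding TSS, and 76.3% after weighting to the members' lengths. The odds ratio was 0.141 (0.111 to 0.181, p = 4.84e-72, n = 314 shrinking sites). The median GC content of these sites was 51.3% in the shrinking group and 55.1% in the other shared group, and the part of GC content in the difference was not tested.

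The start itself was kept more often than its share of the bases. Of the 475 shrinking sites with any TSS inside control cover, 202 (42.5%, 38.2 to 47.0) still had a TSS under the cadmium piece, although cadmium kept 17.6% of the control-covered bases of these sites. Several TSSs in a site make it easier to keep one. In the 265 sites with a single TSS, 79 (29.8%, 24.6 to 35.6) kept it, with 17.1% of the bases kept. With coding starts alone, 135 of 314 sites (43.0%) kept one. Around the coding start closest to the kept piece, the piece covered the start in 127 sites, was downstream in 104 and upstream in 75, and 8 sites had starts on both strands. Among the pieces beside the start, 58.1% (50.8 to 65.1) were downstream, and the median distance from the start was 1034 bp.

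The 10 sites of lowest ratio at a coding start show these arrangements. At SMARCD3 the control list covered chr7:151239601-151245799, or 6199 bp with 5 coding starts, and cadmium kept 199 bp centred 814 bp upstream of the closest start. At PDIA4, 3799 bp became 199 bp at the upstream edge. This was an internal start, and the site at the outermost start of PDIA4 went from 3399 to 3199 bp. At PI16, 3199 bp became 199 bp, 1562 bp downstream of the start. The 6399 bp at ADGRD2, an adhesion G protein-coupled receptor, became 399 bp that lay 4651 bp upstream. This was the only one of the 10 at a gene's outermost start. PPP2R5D, a regulatory subunit of protein phosphatase 2A, had 5799 bp in control and 399 bp in cadmium, with the piece 287 bp past a start. ARPC1B, a subunit of the actin-nucleating Arp2/3 complex, and RELN, the secreted glycoprotein reelin, each went from 2799 to 199 bp. ZBTB16, a zinc finger repressor, went from 5599 to 399 bp. The kept piece covered a start at only 2 of the 10: LLGL2, a cell polarity gene that went from 5599 to 399 bp, and FEZ1, a kinesin adaptor that went from 4999 to 399 bp. The LLGL2 piece holds 1 AP-1 match, as does the PI16 piece. The other 8 pieces hold none.

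**Figure D2:**
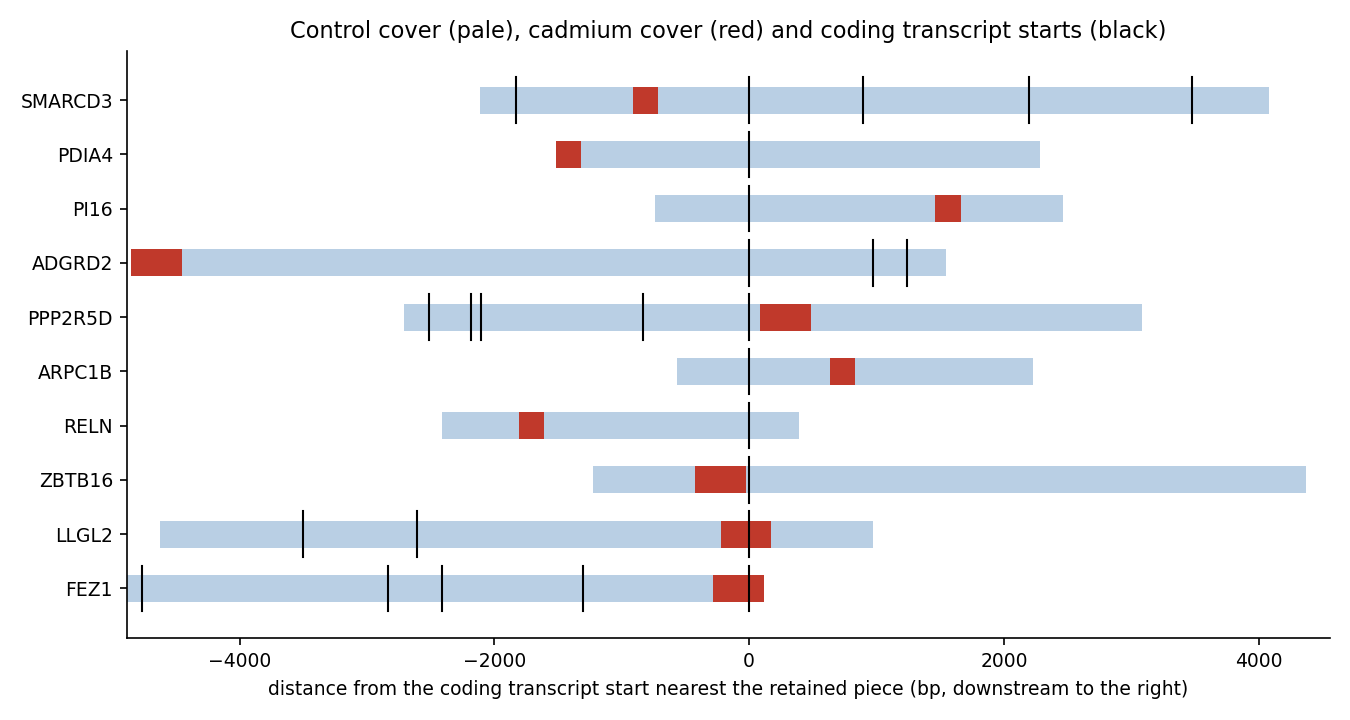
Each row is 1 of the 10 shrinking sites of lowest ratio with a coding start inside, drawn by distance in bp from the coding start nearest the kept piece, with downstream to the right. Pale bars are control cover, red bars are cadmium cover and black ticks are coding starts. A red bar meets a tick only at LLGL2 and FEZ1.

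The distal sites of lowest ratio were reduced as far. The SHROOM3 site (chr4:76619801-76625799) went from 5999 to 199 bp, the RIOK1 site from 4999 to 199 bp and the TRA2B site from 3999 to 199 bp. A site in the gene-less middle of chromosome 1 (chr1:123416201-123419799), whose closest start belongs to LINC01691 and is 1837476 bp away, went from 3599 to 199 bp. The shrinking sites included 18 over 500 kb from every TSS, and 17 of these were on chromosome 1. How multiply mapped reads were treated is not given in the sources used here. Repeat content and mappability of that stretch were not examined, so how far calls there reflect binding was not tested. Sites near NAP1L1P1 (3599 to 199 bp), SPRY1, an inhibitor of receptor tyrosine kinase signalling (3399 to 199 bp), and ENSG00000279011 (3399 to 199 bp) were intergenic. Intronic sites in FGF1, a growth factor (3399 to 199 bp), GRIK4, a glutamate receptor subunit (3199 to 199 bp), and DAB2IP, a RAS GTPase-activating protein (3199 to 199 bp), complete the 10. Of these 10 kept pieces, those near NAP1L1P1 and ENSG00000279011 and those in GRIK4 and DAB2IP hold an AP-1 match, with 2 matches each at ENSG00000279011 and GRIK4.

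The AP-1 sequence was concentrated in the pieces that cadmium kept. The 200 bp at the centre of the longest kept piece held TGACTCA in 695 of 2425 sites (28.7%, 26.9 to 30.5), and the 200 bp at the centre of the longest dropped piece of the same sites held it in 94 (3.88%, 3.18 to 4.72). There were 663 sites with the match in the kept window alone and 62 with it in the dropped window alone, a ratio of 10.7 (8.23 to 14.1, exact McNemar p = 5.94e-128, Benjamini-Hochberg adjusted over 11 motifs 6.53e-127). Counted over all bases, 1122 AP-1 matches fell in kept sequence and 1017 in dropped sequence. Thus 52.5% of the matches lay in the kept sequence, and the density was 0.948 per kb in kept and 0.186 per kb in dropped sequence. The rule used lengths and no sequence, so the motif was free to lie in either part. The kept window is DNA called in both lists, and the dropped window is DNA called in control alone. The same contrast in other shared sites is not given here. By site, 621 had AP-1 matches in kept sequence alone, 338 in both parts, 478 in dropped sequence alone, and 988 (40.7%) had none.

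Density fell off within a short distance of the centre of the kept piece. AP-1 matches reached 1.95 per kb in the 50 bp on either side and fell to 0.128 per kb at 300 to 350 bp on either side. TEAD matches (GGAATG) reached 1.2 and 1.17 per kb in the 50 bp before and after the centre. Forkhead matches, searched as GTAAACA or ATAAACA, or either with T in place of the C, had no such maximum, with 0.742 and 0.866 per kb there.

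**Figure D3:**
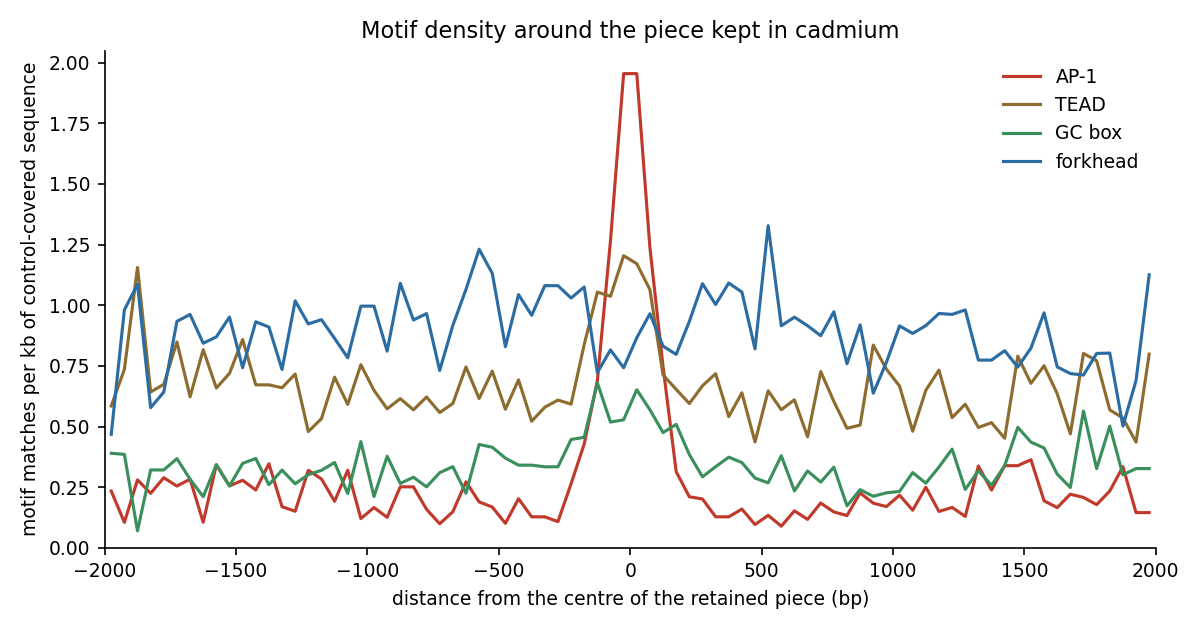
Matches per kb of control-covered sequence (y axis) by distance in bp from the centre of the kept piece (x axis, steps of 50 bp) for AP-1, TEAD, GC box and forkhead sequences in the 2425 shrinking sites. AP-1 peaks at 1.95 per kb at the centre, while forkhead shows no maximum there.

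The shorter the kept piece, the more often its middle held AP-1. The share was 38.1% (33.6 to 42.8) in sites that kept 199 bp, 32.3% (29.7 to 35.1) at 399 bp, 22.1% (18.7 to 26.0) at 599 bp and 14.5% (11.3 to 18.5) above 700 bp. The intervals of the 199 and 399 bp classes overlap. The window was 200 bp at every length and so covered less of a longer piece. The part of this in the falling share was not tested. The dropped windows of these classes lay between 3.29% and 4.21%. Away from starts, 30.7% of kept and 3.87% of dropped windows held AP-1. Within 1 kb of a TSS the shares were 16.6% and 3.93%, and the ratio there was 5.50 (2.78 to 12.1) in 356 sites.

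AP-1 in kept pieces was not particular to the shrinking sites. With piece length in both lists held equal, 33.2% of the kept pieces of other shared sites had AP-1 in their middle 200 bp, against 28.7% in the shrinking sites (odds ratio 0.797, 0.724 to 0.877, p = 3.64e-06, n = 2425 shrinking sites). Gained peaks, which are cadmium peaks with no control peak, held it in 28.8% at the same lengths (odds ratio 0.997, 0.897 to 1.11, p = 0.979, n = 2425 shrinking sites). At the centre of all merged sites the share was 13.8% in 200 bp, and at the centre of the shrinking sites themselves it was 6.43%. These comparisons at equal piece length were added after the motif shares had been seen.

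Other sequences were also divided unequally between the kept and dropped windows. The TEAD sequence was in 19.3% of kept and 10.7% of dropped windows (ratio of sites with it in 1 window alone 2.00, 1.69 to 2.37, adjusted exact p = 3.32e-16). The RUNX sequence TGTGGTT was in 8.95% and 3.55% (2.62, 2.02 to 3.42, adjusted exact p = 4.04e-14). The GC box GGGCGG, bound by SP and KLF factors at promoters, was in 8.82% and 4.25% (2.39, 1.83 to 3.14, adjusted exact p = 3.36e-11). It was most frequent at starts, where 19.7% of kept and 8.71% of dropped windows held it. The antioxidant element TGACNNNGC, which NRF2 binds and which can overlap an AP-1 match, was in 11.5% and 7.42% (1.62, 1.32 to 1.98, adjusted exact p = 3.34e-06). The simplified CTCF core AGGNGGC was in 16.4% and 14.2% (1.21, 1.02 to 1.43, adjusted exact p = 0.0458).

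MTF-1's own element went the other way. The MRE core was in 13.3% of kept and 17.2% of dropped windows, a ratio of 0.732 (0.622 to 0.861, adjusted exact p = 0.000242). At the centre of all merged sites 15.3% of 200-bp windows held it. The forkhead sequence was in 14.8% of kept and 16.5% of dropped windows, with a ratio of 0.882 (0.752 to 1.03, adjusted exact p = 0.149), and a difference was not detectable. It was called below 1 in 2 other settings, at 0.796 (0.677 to 0.935) with the dropped window directly beside the kept piece. The C/EBP sequence TTGCNNAA (9.81% and 9.61%), the NF-Y sequence CCAAT (24.6% and 23.1%) and the ETS sequence CCGGAAG (1.32% and 0.742%) did not pass the test.

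**Figure D4:**
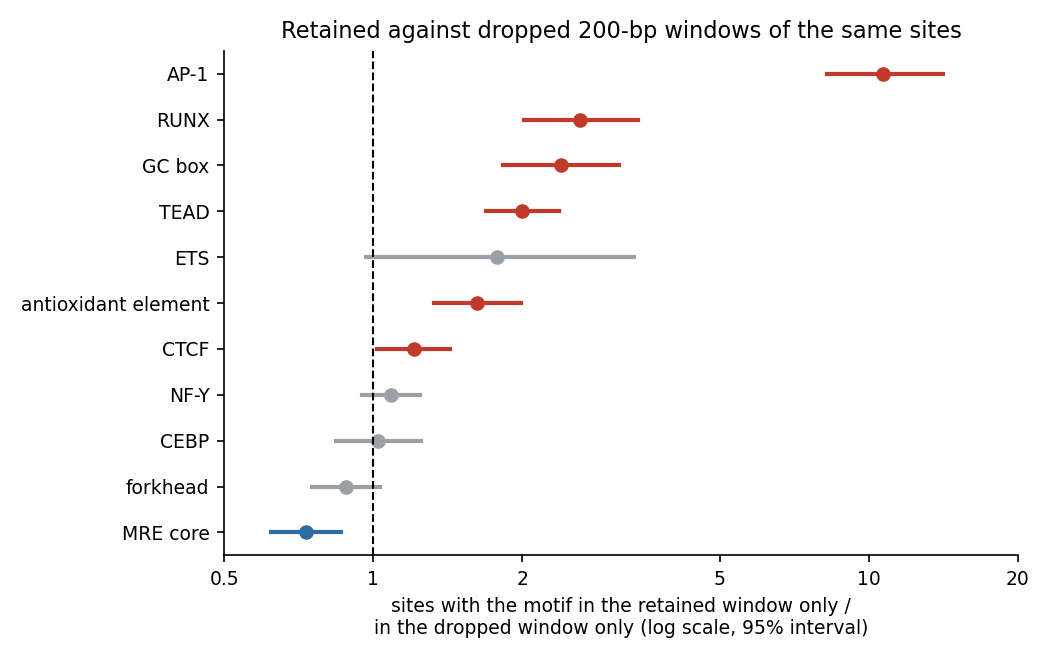
For 11 motifs, the number of shrinking sites with the motif in the kept 200-bp window alone divided by the number with it in the dropped window alone (x axis, log scale), with 95% intervals. Intervals entirely above 1 are red, entirely below 1 blue and those that include 1 grey; AP-1 stands at 10.7 and the MRE core at 0.732.

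Kept pieces were also somewhat richer in GC. The kept 200 bp had a median GC content of 48.0% and the dropped 200 bp 45.5%. The median difference within a site was 2.5 percentage points, and the kept window was higher in 1477 of 2425 sites (60.9%, 58.9 to 62.8). The difference was 3.5 points within 1 kb of a TSS and 2.5 points elsewhere. Its part in the motif shares was not tested.

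At their centres, the shrinking sites differed from other shared sites in the sequences of promoters more than in AP-1. In the 500 bp around the site centre, a GC box was in 11.7% of shrinking sites and in 36.4% of other shared sites weighted to the same control length (odds ratio 0.228, 0.201 to 0.259, adjusted p = 3.05e-133, n = 2425 shrinking sites). The ETS sequence was in 1.94% and 6.89% (0.266, 0.198 to 0.357) and the CTCF core in 30.4% and 45.5% (0.521, 0.476 to 0.570). The MRE core was in 33.6% and 40.9% (0.730, 0.669 to 0.798). Higher in the shrinking sites were NF-Y (50.9% and 41.7%, 1.45, 1.33 to 1.57), C/EBP (22.4% and 17.4%, 1.37, 1.24 to 1.52) and forkhead sequences (34.5% and 23%, 1.77, 1.62 to 1.94). The shrinking sites had a median GC content of 45.2%, against 49.2% in other shared and 43.6% in lost sites. With GC content added to the length classes, the forkhead odds ratio was 0.980 (0.890 to 1.08), so the forkhead difference was not detectable at equal GC content. Of the 11 motifs, only forkhead and AP-1 were compared in that way. The other odds ratios were held for length alone. The parts of GC content and of nearness to a TSS in them were not tested.

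AP-1 at the centre was in 14.9% of shrinking sites and 15.2% of other shared sites at equal length (0.971, 0.863 to 1.09, p = 0.648, n = 2425 shrinking sites), a difference that was not detectable. This value depended on where the window lay and on which length was held equal. Centred on the longest piece that both lists cover, the AP-1 odds ratio was 2.66 (2.44 to 2.91) at equal control length. Piece length was not held equal there. At equal piece length, in the middle 200 bp, it was 0.797 (0.724 to 0.877), so the 2.66 does not show more AP-1 in pieces of the same length. Back at the site centre, with GC content added to the classes of control length, the AP-1 odds ratio was 0.717 (0.635 to 0.808). Against lost peaks of the same length, also at the site centre, the odds ratio was 1.24 (1.09 to 1.42) for AP-1 and 1.18 (1.07 to 1.31) for forkhead sequences. Without equal length the shares ran the other way. AP-1 was in 14.9% of shrinking sites and 24.5% of lost peaks, and forkhead sequences were in 34.5% and 41.2%.

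Shrinking sites were unevenly spread over the chromosomes. On chromosome 11, 284 of 2229 shared sites shrank (12.7%, 11.4 to 14.2), against 5.12% in all. The shares on chromosomes 14 (8.61%), 20 (8.16%), 4 (7.53%), 7 (7.41%) and 12 (6.25%) also had intervals above 5.12%. The lowest shares were on chromosomes 21 (8 of 559, 1.43%), 15 (1.44%) and 22 (1.67%). The ratios of all shared sites differed between these chromosomes as well. The median ratio over all shared sites was 0.625 on chromosome 11 and 1 on chromosomes 21, 15 and 22, against 0.833 in all. The share of control peaks lost outright was 36.8% on chromosome 11 and 15% on chromosome 22. The part of these shifts in the counts of shrinking sites was not tested.

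**Figure D5:**
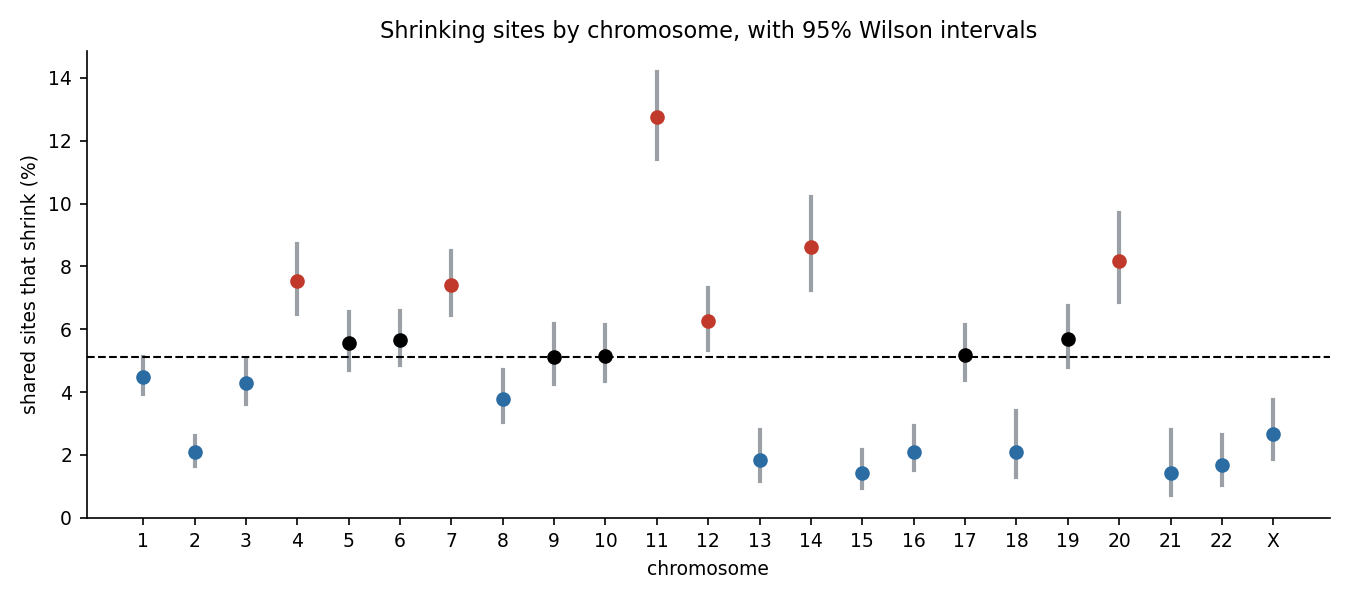
Share of shared sites that shrink (y axis, %) on each chromosome (x axis), with 95% Wilson intervals and a dashed line at 5.12%. Red points have intervals above the line, blue points below it; chromosome 11 is highest at 12.7%.

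The spread was uneven within chromosomes too. Of 216 windows of 10 Mb with at least 100 shared sites, 7 had over 15% shrinking sites. These 7 held 263 members (10.8%) and 2.77% of the shared sites. On chromosome 11, 60 of 225 shared sites between 70 and 80 Mb shrank (26.7%, 21.3 to 32.8), 45 of 207 between 120 and 130 Mb (21.7%) and 21 of 106 between 100 and 110 Mb (19.8%). On chromosome 7, 41 of 216 between 150 and 160 Mb did (19.0%), a window that holds the SMARCD3 site. The median ratio of all shared sites in the first window was 0.409. In 6 windows no site shrank, with 106 to 251 shared sites each, and a count of 0 allows shares of up to 1.2% to 2.83% there. Without chromosome 11, the start-site odds ratio was 0.193 (0.170 to 0.219) and the kept against dropped AP-1 ratio was 10.2 (7.75 to 13.7).

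The centres of 1348 shrinking sites (55.6%) lay in 1186 protein-coding genes, of which 174 held more than 1. DST, a cytoskeletal linker of the plakin family, held the most, with 7 of its 19 shared sites. They covered 799 to 2999 bp in control and 199 to 399 bp in cadmium, and 5 of the 7 had AP-1 in the kept window. SHANK2, a scaffold of synapses and epithelial membranes on chromosome 11, held 6 of 12 (1799 to 6399 bp, then 399 to 799 bp), 4 with AP-1. ABLIM1, an actin-binding protein, held 5 of 23, of which 2 had AP-1. MAML2, a Notch coactivator, held 5 of 15 and RDX, which encodes the membrane-to-actin linker radixin, 5 of 14, each with AP-1 in 3. MAML2 and RDX are also on chromosome 11. Long genes hold more sites, so these counts are to be read against the shared sites given.

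Among 3 lists of metal-handling genes, 1 gene was next to a shrinking site. Over all protein-coding genes, 385 of 19962 (1.93%) had a TSS within 1 kb of one. None of 11 metallothionein genes did, 4 of which had a shared site, nor did any of 24 zinc and cadmium transporters, 17 of which had a shared site. A count of 0 allows shares of up to 27.3% and 12.5% of all listed genes, those without a shared site included. Of 19 iron and copper genes, SLC11A2, the divalent metal transporter, was the only one. The control list covered 999 bp at its outermost start and cadmium kept 199 bp that still covered the start. Of 24 genes of the NRF2 and glutathione list, ABCC2, a glutathione-conjugate pump (1599 to 199 bp), and GSS, glutathione synthetase (6599 to 1399 bp), were next to one. The GSS piece covered 14 of the 15 transcript starts that control covered.

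A shared site was found for only 6 of the 14 genes of AP-1 factors and 19 of 39 mesenchymal and migration genes. None of the listed genes of either group was next to a shrinking site, which allows up to 21.4% and 7.69% of all listed genes. Of 36 forkhead genes, FOXO4 was (2599 to 399 bp), at an internal start, while the site at its outermost start went from 1799 to 2199 bp. Of 20 integrins, ITGA3 was (6999 to 599 bp), at an internal start. Among 29 TGF-beta genes, SMAD3, which carries the signal to the nucleus, went from 6599 to 1199 bp and TGFB1, the ligand, from 1999 to 399 bp. Both were in introns.

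EGFR, a receptor tyrosine kinase on chromosome 7, was the only one of 45 such genes. Its shrinking site (chr7:55104801-55109799) is in an intron and went from 4999 to 399 bp, with AP-1, MRE and TEAD sequences in the kept piece. The site at the outermost EGFR start went from 6999 to 2999 bp, which did not meet the rule. Of 78 ribosomal protein genes, RPS3 was (7599 to 799 bp). The piece covered 12 of 15 transcript starts at its outermost promoter. PDIA4, described above, was the only one of 30 heat shock and unfolded protein genes. CACNA1A (1599 to 399 bp), with AP-1 in the kept piece, was the only one of 18 calcium channel genes.

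Genes on the study's own lists of changed RNA were set beside the sites as well. These lists were made from cells of the same study, so they are not independent evidence. Of 119 genes listed as higher in cadmium, 118 were matched to a TSS, and of these RELN and SP140 had a TSS within 1 kb of a shrinking site (1.69%). The SP140 site, in a gene of a nuclear body protein of immune cells, went from 1799 to 399 bp. Of 106 genes listed as lower, 5 did (4.72%), against 1.93% of all coding genes. They were HIBADH, an enzyme of valine breakdown (3399 to 399 bp), PLAAT4 (2799 to 399 bp), GBP2, an interferon-induced GTPase (2199 to 399 bp), C1QL1 (4199 to 799 bp) and NRP2, a co-receptor for semaphorins (1999 to 399 bp). The site at the outermost start of NRP2 covered 4799 bp in both lists, and that of HIBADH went from 4999 to 3599 bp. The kept pieces at PLAAT4 and GBP2 hold an AP-1 match. Only genes with a shared site can be next to a shrinking one. A shared site was found for 89 of the 106 lower genes, 67 of the 118 higher genes and 13284 of the 19962 coding genes. With counts this small, the share was not tested against the background.

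Shrinking sites lay beside lost peaks more often than other shared sites did. Of the 4850 sites that flank them on either side, 1456 (30%) were lost peaks, 202 (4.16%) were other shrinking sites and 390 (8.04%) were gained peaks. For the other shared sites the shares were 22.6%, 3.0% and 11.3%. The 77054 merged sites held 19339 lost peaks under 8000 bp, 2425 shrinking sites and 9071 gained peaks under 8000 bp. These are counts of neighbors, which share a chromosome stretch and are given as a description.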

How the data were processed

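MTF-1 CUT&RUN was analysed as 2 peak lists, 1 for the 2 control and 1 for the 2 cadmium libraries. The authors trimmed adaptors, aligned to hg38 with Bowtie2, merged replicates with samtools 1.8 and called peaks with Epic2 0.0.50 at default settings (the labels name SICER 0.0.50), with no control library named. The 2 deposited lists hold 69299 and 60130 peaks as chromosome, start and end, with a last column of 1 constant value, so there is no score, count or signal. The total reads per library are unknown here.

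Peaks were merged, measured and searched in Python 3.11.15 with numpy 2.4.6 and scipy 1.17.1. The member count, the Mantel-Haenszel odds ratio and the ratio of the McNemar comparison were tested on simulated data. The motif search, the placing of windows and the placing by genes were not tested in that way. TSSs were the transcript starts of GENCODE 44, and sequence was read from the hg38 reference. Motif strings were searched on both strands without mismatches. Sites were compared by Mantel-Haenszel odds ratios in classes of 200 bp of control cover, with 95% intervals. Kept and dropped windows of 200 bp were compared by two-sided exact McNemar tests, and p-values were adjusted by Benjamini-Hochberg over 11 motifs. In the 500 bp around the centre of all merged sites, 25.1% held AP-1, 30.4% forkhead, 33.7% MRE core, 30.3% TEAD, 12.2% RUNX, 21.4% C/EBP, 4.25% ETS, 21.1% GC box, 46.7% NF-Y, 36.4% CTCF and 20.4% antioxidant element sequences.

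The members, gene lists and tests were chosen with earlier results of these data known. Named were the 10 lowest ratios with a coding TSS in control cover, the 10 lowest over 10 kb from every TSS, the 5 genes with most members, list genes within 1 kb of a member, and 3 sites on either side of the ratio limit. Each gene was placed by symbol, and the study's lists of changed genes were used for their names alone. The comparisons by chromosome, by 10 Mb window and at equal piece length were added after seeing the data. A sequence withheld for evaluation is not reported here.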

Additional observations from a re-analysis of the deposited data

How the results depend on the processing

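No paired analysis was possible because the replicates were merged before peaks were called, and for the same reason no library could be left out. There were 93 alternative values over 8 results, 8 of them added after seeing the data. The kept against dropped AP-1 ratio stayed above 1 in all 13 of its alternatives (5.50 to 15.2). The start-site odds ratio stayed below 1 in all 14, and its interval included 1 only against lost peaks (0.951). The number of shrinking sites was 1412 at a ratio of 0.2 and 4566 at the looser limit of 1 to 3, and between 1988 and 2478 in the other 7. The share that kept a start was 34.3% at the stricter and 53.5% at the looser limit. At the looser limit the AP-1 odds ratio was 0.910 and the forkhead kept against dropped ratio 0.817, both then with intervals below 1. With the window beside the kept piece the forkhead ratio was 0.796 and the GC difference 4 points. The AP-1 odds ratio against other shared sites was the least stable. It was 0.540 without length classes, 0.717 with GC content in the classes and 0.701 at sites with no TSS within 1 kb. It turned above 1 for cadmium peaks of 2 bins or more (1.03), peaks within 1000 bp joined (1.01) and 200 bases in both lists (1.03). It was also above 1 for the whole site (1.2), against lost peaks (1.24) and with the window at the piece in both lists (2.66). Piece length was not held equal in the last of these. The forkhead odds ratio turned only with GC content in the classes (0.980). The causes were not tested. Site positions without read counts limit all values to the presence and length of calls.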
